A study of Mus musculus with 15 samples.

Results

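Claudins and junction adhesion molecules were followed in the CA3 field of the newborn mouse hippocampus, comparing doublecortin knockout (Dcx KO) with wild-type (WT) animals. The members were 9 genes, chosen by symbol from the 16602 genes that the arrays name: the claudin genes Cldn1, Cldn3, Cldn5, Cldn10, Cldn11 and Cldn12, the junction adhesion molecule genes Jam2 and Jam3, and Tjp1. Tjp1 encodes ZO-1 and is neither a claudin nor a junction adhesion molecule but the scaffold to which both bind. Together they had 15 of the 25697 probes. Cldn3 and Jam2 had been picked for their difference between the inner KO layer and WT, so their values, which share the inner or the WT arrays with that choice in every comparison, are given as a description without a test.

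The 15 arrays form 3 groups of 5, all at the day of birth (postnatal day 0): the inner and the outer CA3 layer of Dcx KO mice, whose genotype label is mutant, and the CA3 layer of WT mice. Each KO animal gave 1 inner and 1 outer sample, which makes 10 animals in all. Sex, strain and the nature of the Dcx allele are not given in the sources used here. Tissue was cut out by laser, pooled within a brain, and measured on Illumina bead arrays. Doublecortin binds microtubules in migrating neurons, and without it the CA3 pyramidal layer is split. Dcx signal was 10.36 to 10.74 on the KO arrays and 11.76 to 12.07 on the WT arrays; the labels do not say where its probe lies relative to the mutation.

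Claudins are small membrane proteins that span the membrane several times and line up in the strands of tight junctions, where they seal the space between cells or form ion pores. Junction adhesion molecules are immunoglobulin-type surface proteins of the same contacts, and ZO-1 ties both to actin. In the brain, Cldn5 is the main claudin of the endothelial blood-brain barrier, and Cldn11 forms the tight junctions of myelin and of the arachnoid barrier in the meninges. Cldn10 is known from ion-conducting epithelia and Cldn3 and Cldn1 from epithelia, Cldn3 also from the choroid plexus. Cldn12 is expressed in many tissues.

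All levels are log2 signals after background correction and quantile normalization, and a probe counts as well above background on an array when fewer than 1% of the negative controls are as bright. The lowest such signal was between 4.84 and 5.17 on each array, and 10688 to 11976 probes were well above background. Arrays differed in 2 further ways. In the authors' scaled values a further shift was present on 8 arrays, those of KO animals 1 to 4, and not on the other 7, those of KO animal 5 and of WT. Shifted and unshifted arrays are called batches here, although the labels name none and the origin of the shift is unknown, and KO animal 5 alone shares its batch with WT. Inner arrays 1, 2 and 5, outer array 1 and WT arrays 1, 2 and 3 carried high signals of skeletal muscle or bone genes. Of 12 pyramidal neuron markers 10 were detected, 9 of them on all 15 arrays.

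**Figure D1:**
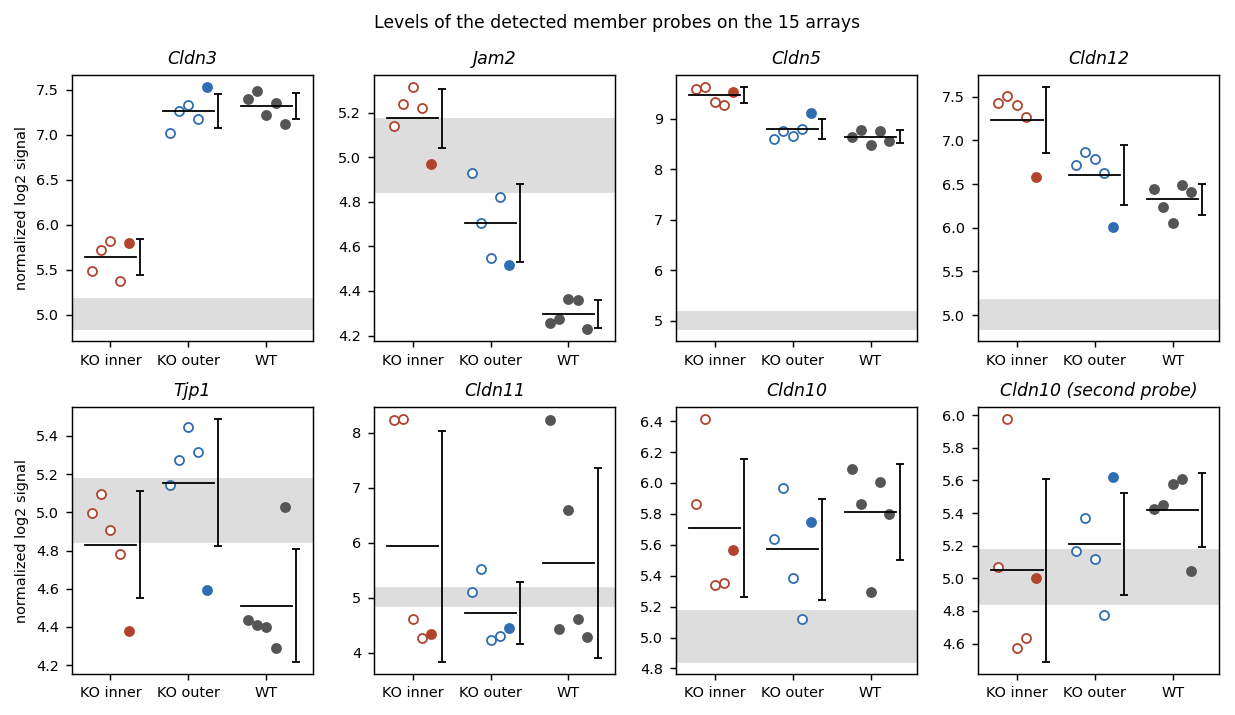
Normalized log2 signal (vertical axis) of the 8 detected member probes on each array of the inner KO, outer KO and WT groups. Open points are shifted arrays and filled points unshifted ones, horizontal lines are group means and bars 1 SD (n = 5). The grey band is the lowest signal well above background, 4.84 to 5.17; Cldn3 stands apart in the inner layer, and the Jam2 and Tjp1 points lie near the band.

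Of the 15 probes 8 passed the filter on dim probes, and these stood for 7 genes. A probe passed when it was well above background on at least 5 arrays. Jam2 passed through the inner arrays alone, 5 of 5 there and 0 of 10 elsewhere, so it could enter the test only by being high in that layer. Tjp1 passed with 2 inner, 4 outer and 0 WT arrays, so it could enter the comparisons with WT only by being brighter on KO arrays. Jam3, whose product JAM-C is a partner of the Jam2 product JAM-B, was well above background on 0 of 15 arrays (4.14 to 4.91). Cldn1 was so on 3, at 5.04 on inner array 2, 5.40 on WT 1 and 5.11 on WT 3, all 3 among the arrays high in muscle or bone genes. Of 12 epithelial and keratinocyte markers on the array, Epcam alone passed the filter.

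Between the KO layers, Cldn3 was higher in the outer layer and Cldn5, Cldn12 and Jam2 were higher in the inner layer. Of the 5 detected members not picked on these values, Cldn5 and Cldn12 were called lower and Tjp1 higher in the outer layer, by a limma adjusted p under 0.05 in a fit paired over animals. In that comparison 19.9% of all 11998 tested probes were called, 9.93% higher and 9.99% lower. Arrays of the 2 layers did not overlap for Cldn3, Cldn5 and Jam2, as for 8.6% of all probes.

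Against WT, Cldn5 and Cldn12 of the same 5 members were called higher in the inner layer, where 28.8% of all probes were called (14.1% higher and 14.7% lower). Inner and WT arrays did not overlap for these and for the picked Cldn3 and Jam2, as for 15.5% of all probes. In the outer layer Tjp1, of the same 5 members, was called higher than WT, where 15.7% of probes were called (9.38% higher and 6.27% lower). Tjp1 had passed the filter through KO arrays alone, so this call is not independent of the filter. Outer and WT arrays did not overlap for Jam2 alone, whose signal was well above background in neither, as for 8.55% of all probes. The 3 comparisons share arrays, so their values for a member are given side by side.

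RefSeq start regions were available for 7 of the 9 members. Those of Cldn3, Cldn5 and Cldn12 are shown because Cldn3 was higher in the outer KO layer and the other 2 were higher in the inner. Each window runs 5′ to 3′ on the gene's strand from 250 bases before to 50 after the start (GRCm38.p6), and capitals mark motif matches on either strand. The motifs searched were the E-box CAGGTG, of the kind bound by Snail repressors, the CCAAT box, the GC box GGGCGG and the TATA box TATAAA. A match on the opposite strand appears in the printed strand as its reverse complement, and no matches overlapped. The arrays did not measure binding to these windows.
Cldn3, chr5:134985964-134986263, plus strand: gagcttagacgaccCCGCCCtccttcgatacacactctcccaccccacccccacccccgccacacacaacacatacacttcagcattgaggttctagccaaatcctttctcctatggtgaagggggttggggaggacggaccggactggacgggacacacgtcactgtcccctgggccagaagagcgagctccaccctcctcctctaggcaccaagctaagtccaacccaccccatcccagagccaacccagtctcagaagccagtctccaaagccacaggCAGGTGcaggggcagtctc
Cldn5, chr16:18776597-18776896, plus strand: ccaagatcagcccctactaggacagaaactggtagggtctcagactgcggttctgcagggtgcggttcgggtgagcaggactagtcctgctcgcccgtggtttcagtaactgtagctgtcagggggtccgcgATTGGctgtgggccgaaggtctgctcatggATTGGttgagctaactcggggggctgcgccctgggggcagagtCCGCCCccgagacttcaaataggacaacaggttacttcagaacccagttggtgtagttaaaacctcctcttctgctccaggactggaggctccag
Cldn12, chr5:5514927-5515226, minus strand, the outermost of its starts: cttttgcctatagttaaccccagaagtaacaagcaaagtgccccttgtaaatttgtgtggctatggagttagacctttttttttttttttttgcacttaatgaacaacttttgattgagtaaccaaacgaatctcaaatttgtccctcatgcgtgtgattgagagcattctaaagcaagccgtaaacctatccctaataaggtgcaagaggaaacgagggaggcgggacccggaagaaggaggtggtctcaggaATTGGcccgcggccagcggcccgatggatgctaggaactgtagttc
Cldn3 held 1 E-box, at position 32 after the start, and 1 GC box. Cldn5 held 2 CCAAT boxes and 1 GC box, and Cldn12 1 CCAAT box. Over 32851 windows of the same length, 20.2% held CAGGTG, 37.4% CCAAT, 35.7% GGGCGG and 13.6% TATAAA. A match is a description and not a binding site. The GC content was 60.7% for Cldn3, 58.3% for Cldn5 and 45.3% for Cldn12, against a median of 52.7%.

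Cldn3 was low in the inner KO layer and higher in the outer layer and in WT, whose arrays overlapped. The 5 inner arrays read 5.49, 5.72, 5.82, 5.37 and 5.80 for animals 1 to 5. The 5 outer arrays of the same animals read 7.03, 7.26, 7.33, 7.18 and 7.54, and the WT arrays 7.40, 7.49, 7.22, 7.36 and 7.12. Every inner array lay below every outer and every WT array. The inner mean was 5.64 ± 0.20, the outer mean 7.27 ± 0.19 and the WT mean 7.32 ± 0.15 (SD, n = 5 each). In bulk tissue, fewer cells of a type and less RNA per cell cannot be told apart.

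Within each animal the outer layer exceeded the inner layer by 1.50 to 1.80 on the log2 scale, in 5 of 5 animals. The mean difference was 1.63, or 3.08-fold, and in the unshifted animal 5 it was 1.74. The inner layer differed from WT by −1.68 (3.20-fold lower) over all arrays and by −1.52 for inner array 5 against the 5 WT arrays, within the unshifted batch. The size depends on the background correction: without it, quantile-normalized signals gave −0.89 for inner minus WT and 0.85 for outer minus inner. The outer layer and WT, of which the WT arrays had served to pick the gene, differed by −0.053 ± 0.11 (SE). Within the unshifted arrays this difference was 0.22.

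The genes most like Cldn3 across the 15 arrays, of 8397 genes, were Emilin2 (r = 0.977), Cbfb (0.961), Meis2 (0.960), Pdlim4 (0.948) and Insm1 (0.945). Emilin2 encodes an extracellular matrix glycoprotein, Cbfb the partner of the Runx transcription factors and Insm1 a transcription factor of newborn neurons. Insm1 is also 1 of the newborn neuron markers below. With the batch means subtracted r was 0.936 to 0.974. The arrays share their groups, and both layers of an animal share its tissue, so these r values describe the pattern. Of 9 newborn neuron and intermediate progenitor markers, 6 were called higher and 2 lower in the outer than in the inner layer, against 9.93% and 9.99% of all probes. The mean log2 signal of the 9 markers was 7.10 to 7.46 on inner, 7.63 to 8.03 on outer and 7.31 to 7.73 on WT arrays. The part of these cells in the Cldn3 difference was not tested. Of 9 choroid plexus and ependymal markers on the array 2 were detected, and Ttr, Folr1, Clic6 and Otx2 did not pass the filter.

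Jam2 was well above background only on the inner arrays, and some arrays lay close to that cut. The detection p-value, the share of negative controls as bright, was 0.00716 on inner array 5. It was 0.0107 on outer array 1 and 0.0116 on outer array 4. Its detected probe read 5.14, 5.24, 5.32, 5.22 and 4.97 on inner arrays 1 to 5. It read 4.93, 4.70, 4.55, 4.82 and 4.52 on the outer arrays, and 4.26, 4.27, 4.36, 4.36 and 4.23 on the WT arrays, none of them well above background. The 3 groups did not overlap. Because the outer and WT signals are only bounds, the background-corrected means put the inner layer at least 1.10-fold above WT and at least 1.16-fold above the outer layer. These bounds set the mean of the inner arrays against the lowest signal well above background on each dim array, or against the probe's own signal where that is higher. They do not allow for the spread between arrays. The size depends on the background correction. Without it, quantile-normalized signals gave 0.29 for inner minus WT and −0.14 for outer minus inner.

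Outer minus inner was between −0.77 and −0.21 in the 5 animals, and inner array 5 exceeded the WT mean by 0.67. Neither outer nor WT arrays were well above background, so no fold or test is given between them. The 3 other Jam2 probes that failed the filter were well above background on 1, 0 and 0 of 15 arrays. The genes most like Jam2 were Olig1 (r = 0.956), which encodes a transcription factor of oligodendrocytes and is on the oligodendrocyte list, Ncald (0.926), Hsbp1 (0.924), the potassium channel gene Kcnma1 (0.923) and Plppr4 (0.912). After subtraction of the batch means r was 0.898 for Olig1 and 0.790 to 0.866 for the other 4. Of 10 oligodendrocyte lineage markers 5 were called lower and 0 higher in the outer than in the inner layer, against 9.99% and 9.93% of all probes. Against WT, 3 of the 10 were called higher and 0 lower in the inner layer, against 14.1% and 14.7% of all probes. The mean of the 10 markers was 6.37 to 6.60 on inner, 5.92 to 6.10 on outer and 5.94 to 6.38 on WT arrays. Other marker lists also differed between the layers, as given with Cldn5 below. The part of oligodendrocytes or other cells in the Jam2 difference was not tested. Mog and Mobp, markers of mature oligodendrocytes, did not pass the filter.

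**Figure D2:**
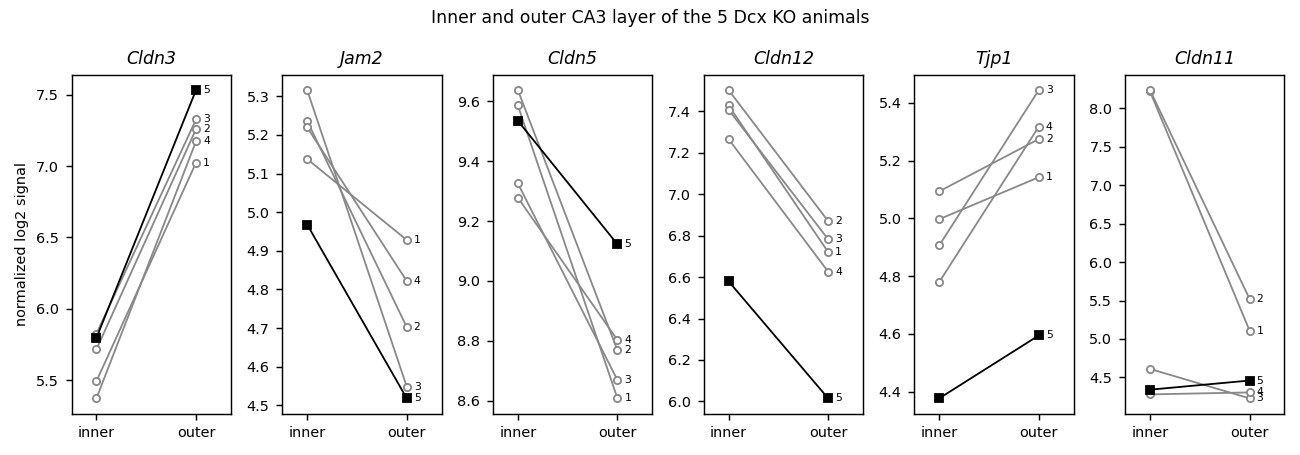
Normalized log2 signal (vertical axis) of 6 members in the inner and outer layer, with a line for each of the 5 Dcx KO animals (numbers). Open circles are the shifted animals 1 to 4 and black squares the unshifted animal 5; from inner to outer layer the Cldn3 lines go up and the Cldn5, Cldn12 and Jam2 lines go down in all 5.

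Cldn5, the endothelial claudin, was highest in the inner layer. It read 9.59, 9.64, 9.33, 9.28 and 9.54 on inner arrays 1 to 5, and 8.61, 8.77, 8.67, 8.80 and 9.12 on the outer arrays of the same animals. WT arrays read 8.65, 8.79, 8.47, 8.75 and 8.57. All 5 inner arrays lay above all outer and WT arrays, and outer and WT arrays overlapped. Outer minus inner was −0.68 ± 0.10 (SE, limma adjusted p = 0.00512), a 1.60-fold lower signal, and each of 5 animals fell, by 0.41 to 0.98. Inner minus WT was 0.83 ± 0.10 (SE, limma adjusted p = 0.00105), or 1.78-fold higher. Outer minus WT was 0.15 ± 0.11 (SE, limma adjusted p = 0.365; 95% interval −0.10 to 0.39).

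With batch in the model the inner minus WT difference of Cldn5 was 0.89 (limma adjusted p = 0.107), as large as without it, and a fit of all 15 arrays with batch and animal gave 1.02 (limma adjusted p = 0.00934). For the outer layer the value within the unshifted arrays was 0.48. With only arrays low in muscle and bone genes, inner minus WT was 0.64 for Cldn5 (limma adjusted p = 0.0293) and 0.89 for Cldn12 (limma adjusted p = 0.0102). This setting leaves inner arrays 3 and 4, both shifted, against WT arrays 4 and 5, both unshifted. Genotype and batch cannot be told apart in it. In animals 3 and 4, low in muscle and bone genes, outer minus inner was −0.57 for Cldn5 (limma adjusted p = 0.0671). The median-centred signals gave −0.44 (limma adjusted p = 0.209).

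Other endothelial markers differed between the layers as well. Of 15 detected, 11 were called lower in the outer than in the inner layer and 0 higher, against 9.99% and 9.93% of all probes. Their median difference was −0.55 against 0.026 over all genes. Against WT, 6 were called higher and 0 lower in the inner layer, against 14.1% and 14.7% of all probes. The mean log2 signal of the 15 markers was 7.04 to 7.51 on inner, 6.77 to 6.95 on outer and 6.74 to 7.29 on WT arrays. WT 1 read 7.29 for these markers and 8.65 for Cldn5, and inner array 3 read 7.29 and 9.33. WT 1 is among the arrays high in muscle or bone genes and inner array 3 is not. Other lists also differed between the layers. Called lower in the outer layer were 10 of 15 astrocyte and radial glia markers and 4 of 7 microglia and myeloid markers, with 0 of either list called higher. The mean of the astrocyte and radial glia markers was 7.91 to 8.42 on inner and 7.56 to 7.66 on outer arrays. Pyramidal neuron markers differed too, 5 of 10 called lower and 2 called higher in the outer layer. Their mean was 8.77 to 8.91 on inner and 8.36 to 8.61 on outer arrays. Against WT 6 of them were called higher and 1 lower in the inner layer. Also called lower in the outer layer were 3 of 9 meningeal fibroblast markers and 2 of 2 choroid plexus and ependymal markers, with 0 called higher. The part of endothelial and other cells in the Cldn5 and Cldn12 differences was not tested. The genes most like Cldn5 across the arrays were Slc9a3r1 (r = 0.974), which encodes a scaffold of membrane transporters, Nrarp (0.964), a target and regulator of Notch signalling, the glutamine transporter gene Slc38a3 (0.943), Etv4 (0.934) and Tril (0.934). None of these 5 is on the endothelial list, but that list holds only 15 of the 8397 genes compared. Their absence from it therefore carries no information on the cells involved.

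**Figure D3:**
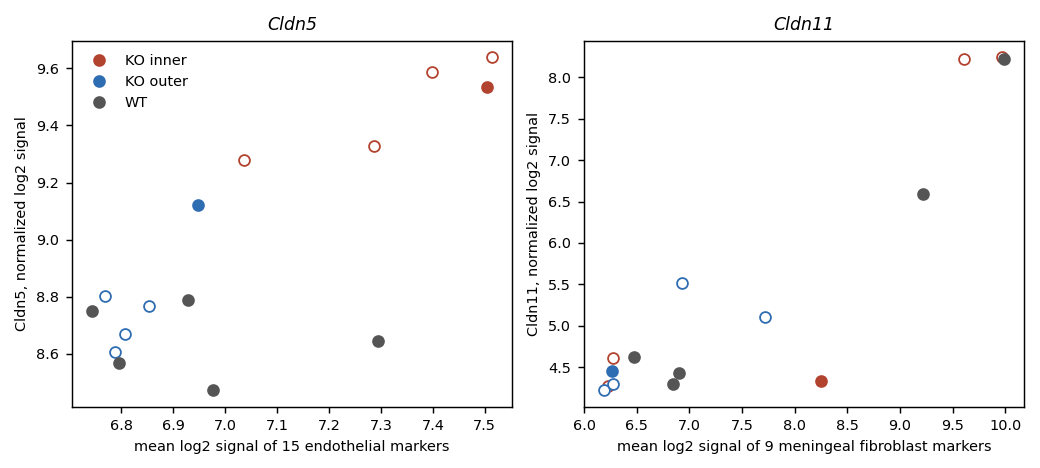
Left, Cldn5 signal against the mean of 15 endothelial markers; right, Cldn11 signal against the mean of 9 meningeal fibroblast markers, both as normalized log2 signal for each of 15 arrays. Open points are shifted and filled points unshifted arrays; the 4 arrays with the highest Cldn11 signal (6.59 to 8.24) are also the 4 highest in meningeal markers (9.22 to 9.99).

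Cldn12 fell from inner to outer layer by nearly the same amount in every animal. Its inner arrays read 7.43, 7.50, 7.41, 7.27 and 6.58, and the outer arrays 6.72, 6.87, 6.78, 6.63 and 6.01. WT arrays read 6.44, 6.23, 6.05, 6.49 and 6.41. Animal 5 was the lowest in both layers, and its inner array lay below 4 of the 5 outer arrays. Outer minus inner was −0.63 ± 0.07 (SE, limma adjusted p = 0.00130), with differences from −0.71 to −0.57 in 5 of 5 animals. Without the pairing of layers the limma adjusted p was 0.0879, and without background correction the difference was −0.38. The median-centred signals gave −0.32 (limma adjusted p = 0.220).

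Against WT, Cldn12 was higher in the inner layer over all arrays but close to WT in the unshifted animal. Inner minus WT was 0.91 ± 0.17 (SE, limma adjusted p = 0.00565), and all inner arrays lay above all WT arrays. Inner array 5, the only inner array in the batch of WT, exceeded the WT mean by 0.25, and with batch in the model the limma adjusted p was 0.749. Outer minus WT was 0.28 ± 0.16 (SE, limma adjusted p = 0.239) over all arrays, 0.42 without outer array 5 (limma adjusted p = 0.0131) and −0.31 within the unshifted arrays. Genotype and batch cannot be told apart for this gene in the 4 shifted animals.

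Tjp1 was close to background throughout. Inner arrays read 5.00, 5.09, 4.91, 4.78 and 4.38, outer arrays 5.14, 5.27, 5.44, 5.32 and 4.59, and WT arrays 4.44, 4.41, 4.40, 4.29 and 5.03. The groups overlapped, with animal 5 low in both layers and WT 5 above the other WT arrays. Outer minus inner was 0.32 ± 0.09 (SE, limma adjusted p = 0.0438), higher in 5 of 5 animals, by 0.15 to 0.54. The limma adjusted p rose to between 0.0653 and 0.125 when any 1 animal was left out. The call was also lost under every other alternative run for this comparison. The difference was 0.10 (limma adjusted p = 0.192) without background correction, 0.13 (0.489) with median centring and 0.086 (0.280) with the authors' scores. The limma adjusted p was 0.0709 with no detection filter, 0.0688 in animals 3 and 4 alone and 0.328 without the pairing.

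Outer minus WT was 0.64 ± 0.18 for Tjp1 (SE, limma adjusted p = 0.0379). As 0 of 5 WT arrays were well above background, the means over all arrays bound this fold at 1.08 or more. This bound does not allow for the spread between arrays or for the batches. The Tjp1 probe had passed the filter on KO arrays alone, which limits the call. Inner minus WT was 0.32 ± 0.17 (SE, limma adjusted p = 0.168). Within the unshifted arrays these differences were 0.083 and −0.14. The outer call was lost without any 1 of outer arrays 1 to 4 or WT arrays 1 to 4 (0.57 to 0.65, limma adjusted p = 0.0641 to 0.0965) and held without outer 5 (0.78) or WT 5 (0.77). Inner minus WT passed without inner array 5 (0.43, limma adjusted p = 0.0426) and without WT 5 (0.45, limma adjusted p = 0.0457).

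Cldn11 was well above background on 2 arrays of each group, though at no more than 5.52 in the outer layer. It passed in no comparison of the normalized signals. It read 8.22 and 8.24 on inner arrays 1 and 2, and 4.61, 4.28 and 4.34 on inner arrays 3 to 5. Outer arrays read 5.11, 5.52, 4.23, 4.30 and 4.46, and WT arrays 8.22, 4.44, 6.59, 4.62 and 4.29. It was well above background on 6 arrays, inner 1 and 2, outer 1 and 2, and WT 1 and 3. Outer minus inner was −1.21 ± 0.51 (SE, limma adjusted p = 0.133), inner minus WT 0.31 ± 1.03 (SE, limma adjusted p = 0.844) and outer minus WT −0.91 ± 0.69 (SE, limma adjusted p = 0.372). With animals 3 and 4 alone outer minus inner was −0.18, and with the authors' scaled scores it passed (−0.87, limma adjusted p = 0.0210).

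The genes most like Cldn11 were Ptgds (r = 0.957), the prostaglandin D synthase gene of meninges and oligodendrocytes, the matrix Gla protein gene Mgp (0.953), the neutrophil gene S100a8 (0.943), the collagen gene Col1a2 (0.943) and the bone gene Ifitm5 (0.941). Col1a2 is also on the meningeal list. The mean of 9 meningeal fibroblast markers was 9.61, 9.97, 9.99 and 9.22 on inner 1, inner 2, WT 1 and WT 3, where Cldn11 was highest, and 6.19 to 8.25 on the other 11 arrays. Inner array 5 had 8.25 for these markers and a Cldn11 signal at background (4.34). The part of meningeal, bone or muscle tissue in the Cldn11 signal was not tested.

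Cldn10 was low and did not differ detectably between the groups. Its brighter probe, for transcript variant 2, was well above background on all 15 arrays. It read 5.86, 6.41, 5.34, 5.35 and 5.56 on inner arrays, 5.64, 5.97, 5.38, 5.12 and 5.75 on outer arrays, and 6.09, 5.86, 5.30, 6.01 and 5.80 on WT arrays. The groups overlapped in each comparison. Outer minus inner was −0.14 ± 0.10 (SE, limma adjusted p = 0.387), inner minus WT −0.10 ± 0.22 (SE, limma adjusted p = 0.743) and outer minus WT −0.24 ± 0.18 (SE, limma adjusted p = 0.374). The corresponding 95% intervals ran from −0.38 to 0.11, from −0.58 to 0.37 and from −0.64 to 0.16.

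A further Cldn10 probe, for transcript variant 1, ranged from 4.57 to 5.97 and was well above background on 11 arrays. It gave 0.16 for outer minus inner, the other sign, with a limma adjusted p of 0.534. Inner minus WT passed for the brighter probe with only arrays low in muscle and bone genes (−0.56, limma adjusted p = 0.0465). That setting sets inner 3 and 4 against WT 4 and 5, which differ in batch. For the dimmer probe it passed without inner array 2 (−0.60, limma adjusted p = 0.0262). The other Cldn10 probes were well above background on 4 and 0 arrays and were not tested. The genes most like Cldn10 reached lower r than those of the other members, between 0.791 (Ctdsp2) and 0.816 (Tmem151a), with Napepld, Mfsd4b1 and Nelfcd between them.

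**Figure D4:**
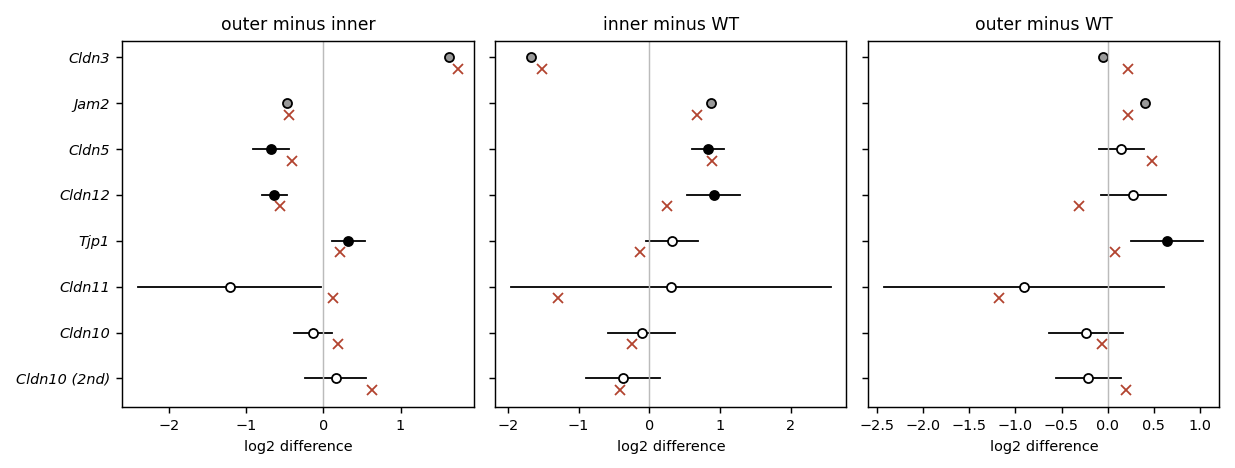
Log2 difference (horizontal axis) of the 8 detected member probes in the 3 comparisons, with 95% intervals. Black points passed the test (limma adjusted p under 0.05), white points did not, and grey points are the values of Cldn3 and Jam2, given without a test; red crosses are the same difference in unshifted arrays only, with KO animal 5. The crosses stay beside the points for Cldn3 and Cldn5 in inner minus WT and are at 0.25 for Cldn12 and −0.14 for Tjp1.

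Of 51 further genes of tight junctions and cell polarity on the array 25 were tested, and their median differences were 0.14 for outer minus inner, −0.22 for inner minus WT and −0.12 for outer minus WT, against 0.026, −0.069 and −0.076 over all genes. Between the layers 1 was called lower and 2 called higher, all 3 in 5 of 5 animals. That is 12% of the 25 against 19.9% of all probes. Esam, an endothelial adhesion molecule of the junction adhesion family that also stands on the endothelial list, fell by 0.82 on the log2 scale (limma adjusted p = 0.00110). The polarity genes Pard3 (0.52, limma adjusted p = 0.0183) and Scrib (0.38, limma adjusted p = 0.0284) were higher in the outer layer.

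Against WT, 3 of the 25 were called higher and 7 lower in the inner layer, or 40% against 28.8% of all probes (14.1% higher and 14.7% lower). Higher were Esam (0.55), the claudin-domain gene Cldnd1 (0.47) and the adhesion gene Clmp (0.30). Their values for inner array 5 against WT were 0.80, 0.29 and 0.086. Lower were the polarity genes Pard3 (−0.71), Scrib (−0.50) and Llgl1 (−0.29), the angiomotin-like gene Amotl2 (−0.70), the claudin genes Cldn15 (−0.52) and Cldn9 (−0.46), and the scaffold gene Magi3 (−0.30), all at limma adjusted p under 0.05. Cldn15 was well above background on 6 arrays, 1 inner, 1 outer and 4 WT, with an inner mean of 4.60 at background. It passed the filter mainly through WT, so its call is not independent of the filter. Pard3 was well above background on 2 of 5 inner, 4 of 5 outer and 5 of 5 WT arrays. Within the unshifted arrays these 7 were at −0.49, −0.28, −0.060, −0.30, −0.27, −0.58 and −0.25.

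In the outer layer 2 of 25 were called higher than in WT, Clmp (0.52) and Cldnd1 (0.46), and 0 lower, or 8% against 15.7% of all probes. Within the unshifted arrays their values were 0.15 and 0.26. Occludin (Ocln), the other strand protein of tight junctions, was well above background on 8 arrays and passed in no comparison (differences of 0.33, −0.26 and 0.076 for outer minus inner, inner minus WT and outer minus WT). Of 15 other claudin-list genes on the array 5 were tested.

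**Figure D5:**
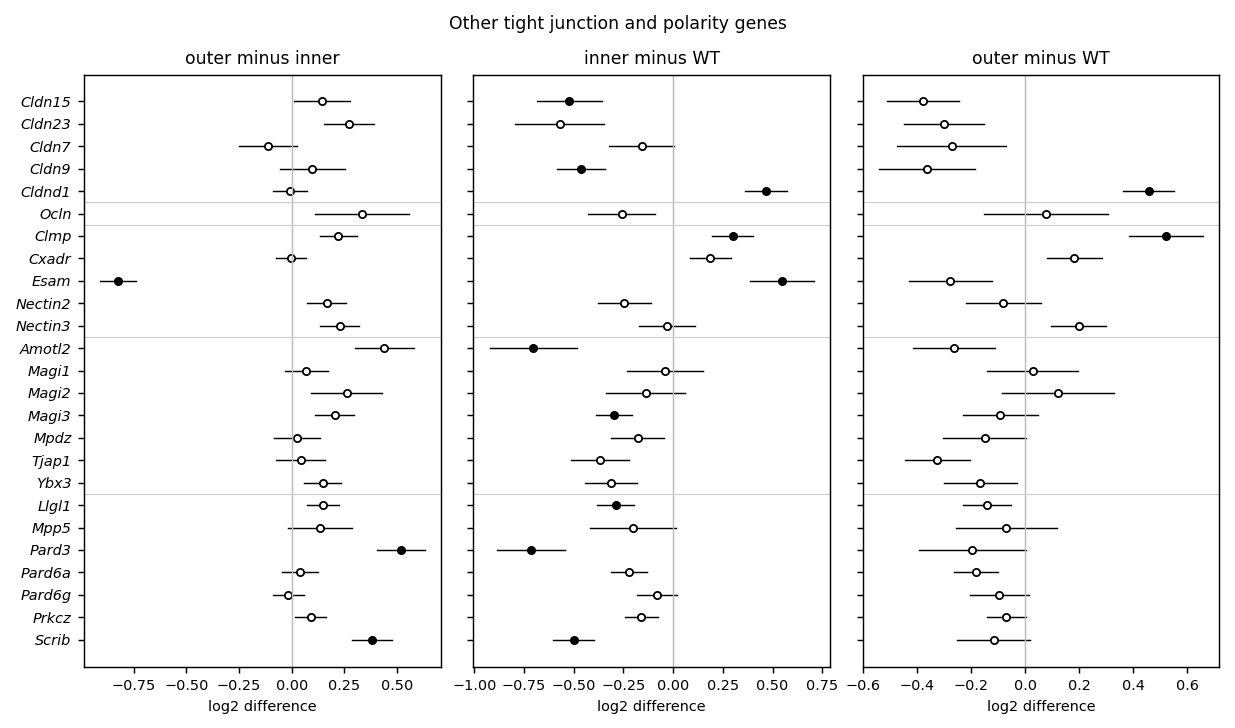
Log2 difference (horizontal axis, bars 1 SE) of 25 further junction and polarity genes in the 3 comparisons, grouped by grey lines into claudins, occludin, immunoglobulin proteins, scaffolds and polarity proteins. Black points passed the test; Esam is the gene farthest below 0 in outer minus inner.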

How the data were processed

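Per the labels' protocols, RNA of laser-cut CA3 tissue was amplified by in vitro transcription for Illumina arrays. The authors deposited log2 signals in tables equal to 6 decimals for 25697 probes. Their medians differed between arrays, so they were treated as not normalized. A deposited table of scaled scores equals, tested on the values, each log2 signal minus the array's median over its SD, with a further shift on 8 arrays. Limma is named, per the submitters' processing notes, without its role; bead summary, background correction and genome build are not given in the sources used here.

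Of 1124 entries without a probe, 1116 dim ones were taken as negative controls, which the table does not name as such, and 8 bright ones (0.5 log2 units above the control median) were set aside. Signals were background-corrected and quantile-normalized with neqc (offset 16) of limma 3.58.1 in R 4.3.3. A detection p-value below 0.01 on 5 or more arrays was required, which kept 11998 probes (46.7%), standing for 8397 genes, each by its brightest kept probe. Symbols came from the platform annotation, and for 1 member probe (Cldn5) and 9 others from the table's own description. Differences were tested by limma's lmFit and eBayes and adjusted by Benjamini-Hochberg over all kept probes. Outer and inner layers were compared with the animal as a block, since both layers came from the same animals. Deviations of same-numbered layers correlated with r of 0.244 to 0.779. Fits were checked on simulated data. The number of arrays limits the precision. Each limma p-value sets a difference against the residual spread between these arrays, moderated over all tested probes. In the paired fit this is the spread of the differences within animals. Without a batch term, the differences from WT also hold any difference between the batches.

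The members and gene lists were chosen with earlier results of these data known. Named were all members, the called junction genes (at most 4 for each list and comparison), and the 5 genes of highest Pearson r with each of 5 members. A listed gene is not reported here. Occludin was named after its values were seen. Alternatives were other normalizations, the deposited scores, other detection filters, the array batch, the replicate number as a block and leaving out arrays.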

Additional observations from a re-analysis of the deposited data

Results flagged for a closer look

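Cldn12 was far below the other arrays of its group in both layers of KO animal 5, at 6.58 against 7.27 to 7.50 in the inner layer and at 6.01 against 6.63 to 6.87 in the outer layer. Tjp1 was far above the other WT arrays on WT 5, at 5.03 against 4.29 to 4.44. Chance singles out about 1 in 20 such groups.

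The paired test of outer minus inner called Cldn5 (−0.68, limma adjusted p = 0.00512), Cldn12 (−0.63, limma adjusted p = 0.00130) and Tjp1 (0.32, limma adjusted p = 0.0438). With median centring Cldn5 and Cldn12 were not called (limma adjusted p = 0.209 and 0.220). Cldn5 was also not called in animals 3 and 4 alone (limma adjusted p = 0.0671), and Cldn12 not without the pairing (limma adjusted p = 0.0879). Tjp1 lost its call under every alternative run for this comparison.

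A Jam2 probe left out of the tests was well above background on 1 array, inner array 3, at 5.23, and on 0 WT arrays (4.18 to 4.45).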

How the results depend on the processing

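Signals near background limit Jam2, Tjp1 and Cldn10, and 1 KO animal in the batch of WT limits every comparison with WT. For outer minus inner, 3 of the 5 members not picked on these values were called, 0 with median-centred signals, 1 with no replicate block, 1 in animals 3 and 4 alone, and 2 whenever 1 animal was left out. For inner minus WT, 2 were called, 0 with the batch as a term, 0 within the unshifted arrays, 1 in the fit of all arrays with batch and animal, and 2 to 3 when 1 array was left out; with the replicate block 2 were called. For outer minus WT, 2 of 7 were called (Tjp1, and Jam2, which is at background in both groups and was picked with the WT arrays, so that its call is no result), 1 with no detection filter, and 0 with quantile normalization alone, median centring, the authors' scores, probes detected on all 15 arrays (4 members tested), the replicate block, the batch term, the unshifted arrays, all arrays with batch and animal, or only arrays low in muscle and bone genes; 0 to 3 were called when 1 array was left out. Same-numbered KO and WT arrays share only a number (r from −0.306 to 0.480 for inner and WT); over all probes outer minus WT had 4 calls with the replicate block. The cause of these changes was not tested.

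Signs turned only for values that were not called, and for these the cause was not tested. Inner minus WT of Cldn11 was −0.012 in arrays low in muscle and bone genes, −1.29 with the batch term and within the unshifted arrays, −0.63 in the fit of all arrays, and −0.27 to 0.95 with 1 array left out. Inner minus WT of Cldn10 was 0.038 with median centring and 0.026 with the scores, and that of Tjp1 −0.0049 with the scores, −0.14 with the batch term and within the unshifted arrays and −0.19 in the fit of all arrays. Outer minus WT of Cldn3 was 0.15 with median centring, 0.10 with the scores, 0.086 in arrays low in muscle and bone genes, 0.22 with the batch term and within the unshifted arrays, 0.16 in the fit of all arrays, and −0.12 to 0.0072 with 1 array left out. That of Cldn12 was −0.028 with the scores, −0.31 with the batch term and within the unshifted arrays and −0.35 in the fit of all arrays, that of Cldn11 0.17 in arrays low in muscle and bone genes, and that of the second Cldn10 probe 0.20 with the batch term and within the unshifted arrays. The second Cldn10 probe was at −0.020 with the scores for outer minus inner.

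Over all probes, outer minus inner gave 2391 calls, 122 with median centring, 898 with no replicate block, 414 in animals 3 and 4 and 1307 to 1740 with 1 animal left out. Inner minus WT gave 3460, 597 with median centring, 1295 with the scores, 1960 in arrays low in muscle and bone genes, 123 in the fit of all arrays, 10 with the batch term and 0 within the unshifted arrays, where limma put 1224 at an unadjusted p under 0.05; leaving out 1 array gave 2284 (without WT 3) to 4579 (without inner 5). Outer minus WT gave 1878, 965 with no filter, 866 with median centring, 630 with the scores, 3 with the batch term, 2 in the fit of all arrays, 2 in arrays low in muscle and bone genes and 0 within the unshifted arrays, where limma put 947 at an unadjusted p under 0.05; leaving out 1 array gave 4 (without outer 3) to 3753 (without outer 5). Outer minus WT gave 60.0% of calls as higher and 95.4% with median centring, which moved the median of all probes from −0.059 to 0.075; inner minus WT gave 49.0% and 90.1%. The scores gave 62.0% for outer minus inner, against 49.9%, and 55.4% and 78.7% for inner and outer minus WT.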
